A study of Mus musculus with 51 samples.

Results

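The CA1 pyramidal cell layer of mice carrying the tTA transgene alone was compared with that of double negative littermates, across all probe sets of the array other than the control ones. The 11 arrays were chosen by their deposited titles, 5 labelled as tTA alone and 6 as double negative, out of 51 arrays of 17 mice, in which each mouse gave 1 array of CA1, 1 of CA3 and 1 of the dentate gyrus (DG). The mice came from a cross of CaMKIIα-tTA mice with TRE-htau (P301L) mice, each on its own inbred background, that of the tau line being FVB/N. tTA mice carried the tetracycline-controlled transactivator under the CaMKIIα promoter and no tau transgene, and double negative (DN) mice carried neither transgene. The 6 rTg4510 mice of the same cross carried both transgenes, so that they share the transactivator with tTA mice, and they entered the fit only to estimate the spread between mice. All mice were labelled female and 4.5 months old, and none of these groups was described as receiving doxycycline or another treatment. The cell layer was cut out by laser, its RNA was amplified and labelled, and it was hybridised to Affymetrix HT-MG-430A arrays.

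The transactivator is a fusion of a bacterial repressor with a viral activation domain, and it switches on genes placed behind a tetracycline operator in the absence of doxycycline. CaMKIIα is the alpha subunit of the calcium and calmodulin-dependent kinase of excitatory forebrain neurons, so that its promoter drives the transactivator in pyramidal and granule cells of the hippocampus. tTA mice serve as the control that separates effects of the driver line from those of the transgene it drives, and DN mice are the control for the driver line itself. A driver line differs from its DN littermates in the transactivator protein, in the site where the transgene integrated and in the stretch of donor chromosome around that site, and these cannot be told apart in this design.

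Signals are given as deposited, on the log2 scale, on which a difference of 1 stands for a 2-fold change, and a median probe set read 3.08 on a CA1 array. Prnp, whose sequences flank the tau transgene, served as a check of the labels. The first of its probe sets read 7.94, 8.07, 8.33, 7.26 and 8.46 on the tTA arrays. Of the DN arrays, 5 read between 6.57 and 8.76, and the array labelled DN mouse 4 read 10.44, inside the range of the rTg4510 arrays (9.96 to 10.55). On the second Prnp probe set it read 10.88, above all rTg4510 arrays (10.52 to 10.77), where the tTA arrays read 9.24 to 9.61. The label of this array therefore went against its Prnp signal in CA1, as it did in CA3 (9.65) and the DG (9.98), and the counts of calls, the Car4 difference and the plotted medians of the gene lists are given with and without it. Xist, the non-coding RNA of the inactive X chromosome in females, read 2.49 on the array labelled DN mouse 5 and between 8.16 and 9.38 on the other 10 arrays of tTA and DN mice. The Y-linked gene Eif2s3y read 1.19 on that array and 1.15 to 1.76 on the other 10. Probe sets of the Y-linked genes Kdm5d and Uty were also below the median probe set on it. Xist also read 4.06 on the CA3 array of DN mouse 5, but 9.91 on the DG array with that label, whose Prnp signal of 9.93 was that of an rTg4510 array. The DG array labelled rTg4510 mouse 3 read 2.50 for Xist and 7.34 for Prnp, so that the labels of these DG arrays are in doubt. The counts of calls and the Car4 difference in the DG are also given without both mice and DN mouse 4. Other DG differences of genes and lists include these arrays unless stated.

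Markers of CA1 pyramidal cells were above those of CA3 and the DG on 3 of 5 tTA arrays and 4 of 6 DN arrays, and CA3 markers were above CA1 markers on the arrays of tTA mice 1 and 4 and DN mice 2 and 5. The mean signal of the 9 CA1 markers measured ran from 3.74 to 6.44 over tTA arrays and from 3.93 to 6.86 over DN arrays. Of these genes 6 had a lower and 3 a higher mean in tTA mice, with a median difference of -0.048 (0.093 without DN mouse 4). At an unadjusted p under 0.05 there were 1 lower and 1 higher (22.2%, against 4.56% of all genes). Among those with a lower mean, the transcription factor gene Etv1 differed by -1.32 ± 0.48 and the serotonin receptor gene Htr1a by -1.47 ± 0.78. At most 1 of Etv1 and Htr1a was thus under that p. The highest difference of the list was 0.37. The CA3 list ran from 3.75 to 5.43 over tTA arrays and from 3.43 to 5.68 over DN arrays, with 7 of 10 genes higher in the mean and a median of 0.34 (0.11 without DN mouse 4). The CA2 list ran from 4.75 to 6.83 over tTA arrays and from 4.18 to 7.12 over DN arrays, with 3 of 5 genes lower in the mean and a median of -0.019 (-0.39 without DN mouse 4). None of these lists held a gene that passed, and the part of the layers' makeup in the differences below was not tested beyond the fits that leave arrays out. Across probe sets, the correlation of an array with the other CA1 arrays averaged between 0.926 and 0.988 for the 11 arrays, and it was under 0.95 for tTA mouse 4 and DN mice 1 and 4. The 3′ minus 5′ signal of Gapdh, which grows as RNA is truncated, averaged 2.14 ± 0.323 on tTA arrays and 2.58 ± 0.335 on DN arrays (SD; two-sided exact permutation p = 0.0433, adjusted p = 0.303 over 7 such values), and 2.45 ± 0.148 on the 5 DN arrays without mouse 4 (exact p = 0.0794). That of actin went the other way, at -0.294 ± 0.191 on tTA arrays and -0.392 ± 0.0961 on DN arrays (exact permutation p = 0.307).

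**Figure D1:**
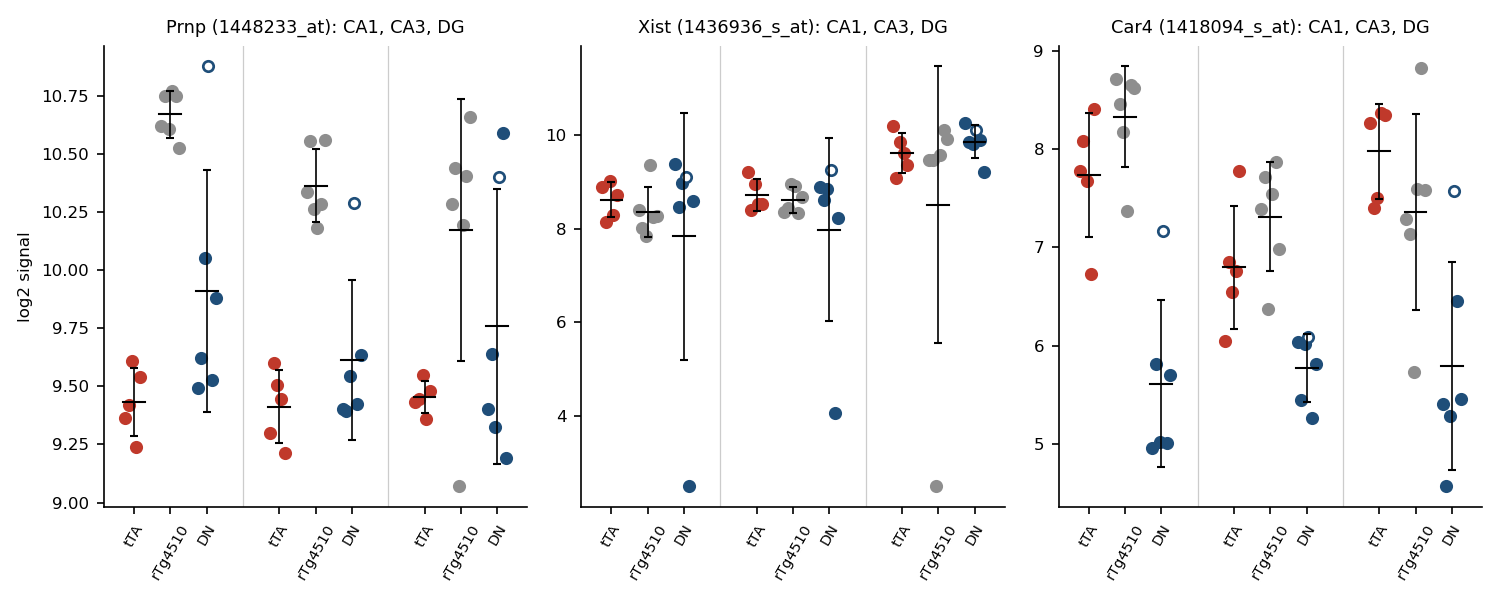
Log2 signal (vertical axes) of Prnp, Xist and Car4 in CA1, CA3 and the DG, from left to right in each panel, with 1 point per mouse for tTA, rTg4510 and DN mice, bars for the mean ± SD and an open circle for the array labelled DN mouse 4. In CA1 that array lies at the level of the rTg4510 arrays for Prnp (10.88) and among the tTA arrays for Car4 (7.16), and 1 DN array lies apart for Xist (2.49).

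Few differences between tTA and DN mice stood out in CA1. Of 22626 probe sets, 0 passed an adjusted p of 0.05 in either direction (0%; limma, with the Benjamini-Hochberg adjustment), and the smallest adjusted p was 0.489. At an unadjusted p under 0.05 there were 1038 probe sets (4.59%), 452 with a higher mean in tTA mice (2%) and 586 with a lower one (2.59%), where 5% would be returned if no probe set differed. Fisher's LSD, the pairwise test after analysis of variance that the methods name, also called 0, with 963 probe sets at an unadjusted p under 0.05. In 79 probe sets (0.349%) the groups did not overlap, with every tTA array above every DN array in 29 (0.128%) and below in 50 (0.221%). Without the array labelled DN mouse 4, 1 probe set passed (0.00442%), 1038 had an unadjusted p under 0.05 (4.59%), 419 with a higher mean in tTA mice (1.85%) and 619 with a lower one (2.74%), and 156 did not overlap (0.689%). Without DN mice 4 and 5, 0 passed by limma, with 953 at an unadjusted p under 0.05. The median standard error of a difference was 0.252 and the median size of a difference was 0.16, so that a typical difference was smaller than its error. With 11 mice the comparison resolves only large differences, and a probe set that did not pass is not shown to be the same in both groups.

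**Figure D2:**
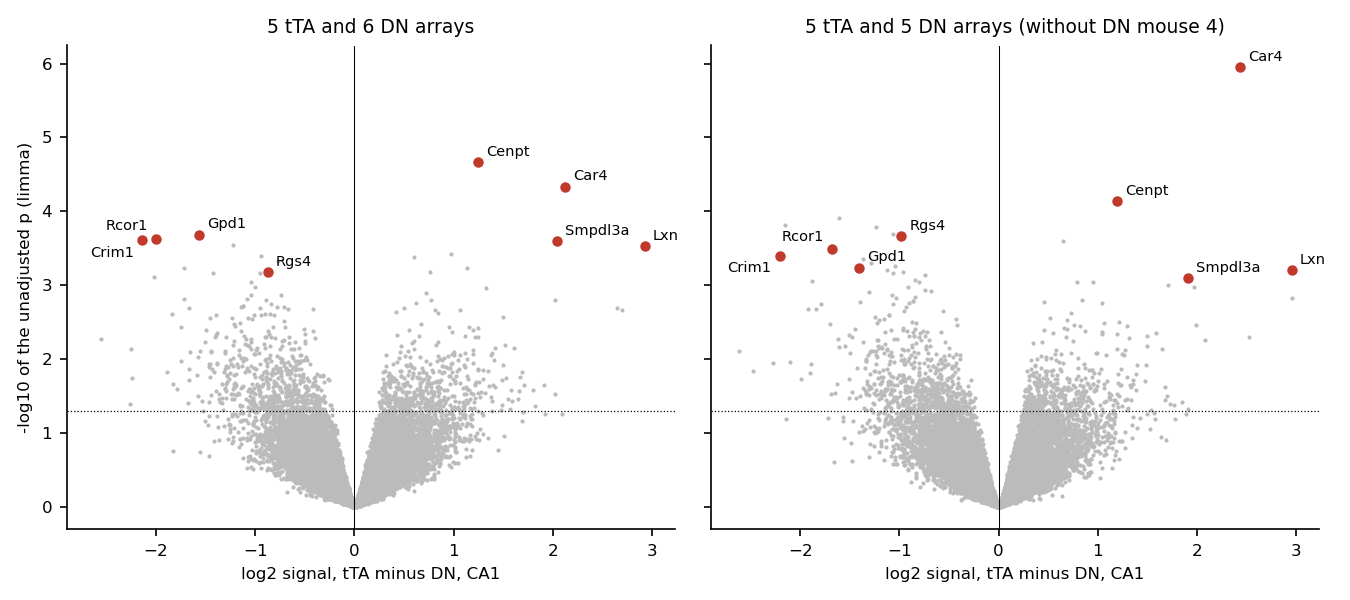
Difference of tTA minus DN mice in log2 signal (horizontal axis) against the negative log10 of the unadjusted p (vertical axis) for 22626 probe sets in CA1, with all DN arrays at the left, without DN mouse 4 at the right and a dotted line at an unadjusted p of 0.05. Car4 is the 1 probe set past the adjusted threshold, in the right panel, at a difference of 2.43.

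The 1 probe set that passed was 1 of the 2 probe sets of Car4, which encodes carbonic anhydrase 4, a membrane-anchored enzyme that interconverts carbon dioxide and bicarbonate at the outer cell surface. Its signals were 7.78, 8.08, 7.67, 6.73 and 8.41 in tTA mice, against 4.96, 5.82, 5.02, 7.16, 5.01 and 5.70 in DN mice. Every tTA array lay above 5 of the 6 DN arrays, and the array labelled DN mouse 4, at 7.16, lay above that of tTA mouse 4, at 6.73. Without that array, Car4 was higher in tTA mice by 2.43 ± 0.32 (SE; limma adjusted p = 0.0256), from means of 7.73 ± 0.63 in tTA mice and 5.30 ± 0.42 in DN mice (SD, n = 5 each). With all 6 DN arrays the difference was 2.12 ± 0.39 and did not pass (adjusted p = 0.522). In bulk tissue, more cells of a kind and more RNA per cell cannot be told apart.

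The rTg4510 arrays, which carry the same driver, gave Car4 signals of 8.71, 8.45, 8.17, 7.37, 8.65 and 8.62. None of these reached down to the DN mean of 5.61. The second Car4 probe set read 9.61, 9.06, 8.70, 7.53 and 9.69 in tTA mice, against 6.48 to 9.12 (median 7.36) in DN mice, where the groups overlapped. Its difference was 1.23 ± 0.48 (adjusted p = 0.998), and 1.50 without DN mouse 4 (adjusted p = 0.981), so that the call rests on 1 of the 2 probe sets. The call was also lost in 10 of 16 fits that left out 1 more mouse, with adjusted p values between 0.0541 and 0.141. Those mice were tTA mice 1, 2, 3 and 5, DN mice 1, 3, 5 and 6 and rTg4510 mice 2 and 3. The difference itself stayed between 2.26 and 2.68 in these fits.

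Car4 was also compared between the subfields. In CA3 the signals ran from 6.04 to 7.77 in tTA mice, against 5.27 to 6.08 in DN mice, a difference of 1.02. In the DG they ran from 7.40 to 8.37 in tTA mice, against 4.57 to 7.57 in DN mice, a difference of 2.18. The highest DN arrays of the DG were those labelled DN mouse 4, at 7.57, and DN mouse 5, at 6.46, both with Prnp signals against their labels. Neither difference passed in its subfield (adjusted p = 0.779 in CA3 and 0.792 in the DG). The difference in CA1 exceeded that in CA3 by 1.10 ± 0.43 within mice (SE; limma adjusted p = 0.996), and it departed from that in the DG by -0.064 ± 0.53 (adjusted p = 1). Without DN mouse 4 the Car4 difference did not pass in CA3, at 1.08 ± 0.32 (adjusted p = 0.705), nor in the DG, at 2.54 ± 0.46 (adjusted p = 0.586), and the difference between subfields was 1.35 ± 0.41 for CA1 against CA3 and -0.11 ± 0.57 for CA1 against the DG (adjusted p = 1 and 0.999).

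Without the mice whose DG arrays are in doubt (DN mice 4 and 5 and rTg4510 mouse 3), Car4 passed in the DG, where it was higher in tTA mice by 2.80 ± 0.34 (SE; limma adjusted p = 0.00604). The DG signals were then 7.40 to 8.37 (median 8.26) in tTA mice, against 5.41, 4.57, 5.28 and 5.46 in DN mice, and every tTA array lay above every DN array. In CA3 the difference was 0.97 ± 0.29 without these mice and did not pass (adjusted p = 0.783). These mice were left out after their Prnp and Xist signals were seen.

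The probe sets with the smallest p values are described next, the 15 with a higher and the 15 with a lower mean in tTA mice. None passed the adjusted threshold, with adjusted p values of 0.489 to 0.998 among the higher and 0.833 to 0.998 among the lower ones, so that their values describe these mice and are not calls. The groups did not overlap in 10 of the 15 with a higher mean (0.128% of all probe sets) and in 9 of the 15 with a lower mean (0.221%). These probe sets were picked for their p values in this comparison, which favours groups that do not overlap.

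Among those with a higher mean, Cenpt, which encodes a protein of the inner kinetochore, had the smallest p (2.2e-05). It read 4.20, 3.21, 3.29, 3.34 and 3.92 in tTA mice, against 2.05 to 2.87 (median 2.26) in DN mice. The difference of 1.25 ± 0.21 (adjusted p = 0.489) was one between low signals, as the DN mean of 2.34 was below the median probe set, and the rTg4510 mean was 2.49. Lxn, which encodes latexin, an inhibitor of carboxypeptidases, read 8.76, 8.70, 7.93, 6.83 and 7.38 in tTA mice, against 4.31 to 5.79 (median 4.97) in DN mice. Every tTA array was above every DN array, by 2.93 ± 0.64 in the mean (adjusted p = 0.833). Smpdl3a, a phosphodiesterase of the acid sphingomyelinase family, read 5.16, 5.21, 4.61, 4.98 and 4.65 in tTA mice, against 1.35 to 4.43 (median 2.61) in DN mice. The narrow range of the tTA arrays lay just above the highest DN array, and the DN arrays were spread from the background upwards.

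Prss23, a secreted serine protease, gave the same picture on both of its probe sets. The brighter one read 7.77, 7.97, 7.81, 7.38 and 7.11 in tTA mice, against 3.11 to 6.21 (median 5.05) in DN mice. The other one read 6.46, 6.22, 6.00, 5.29 and 5.29 in tTA mice, against 1.79 to 5.17 (median 3.08) in DN mice. On both, every tTA array was above every DN array, with differences of 2.69 ± 0.74 (adjusted p = 0.998) and 2.65 ± 0.72 (adjusted p = 0.998). Perp, a membrane protein of desmosomes and a target of p53, read 5.53, 5.88, 4.08, 4.26 and 3.27 in tTA mice, against 2.15 to 3.14 (median 2.43) in DN mice, again without overlap and with a difference of 2.03 ± 0.54.

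CA2 markers, such as Pcp4 and Rgs14, moved with the dimmer Prss23 probe set within groups. The dimmer Prss23 probe set read 5.29 to 6.46 on the tTA arrays, whose CA2 markers averaged 4.75 to 6.83. In rTg4510 mice it read 6.77, 6.38 and 5.67 on the arrays of mice 2, 3 and 5, with CA2 markers at 6.65, 6.76 and 6.39, and 2.72, 4.63 and 3.37 on those of mice 1, 4 and 6, with CA2 markers at 4.25, 5.17 and 4.67. In DN mice it read 5.17, 3.59 and 4.12 on the arrays of mice 1, 2 and 5, with CA2 markers at 6.99, 6.75 and 7.12, and 1.79, 2.58 and 1.95 on those of mice 3, 4 and 6, with CA2 markers at 4.18, 4.59 and 4.54. On this probe set, the arrays with more CA2 marker signal thus had more Prss23 signal in rTg4510 and DN mice. Those of tTA mice 1, 2 and 3, with CA2 markers at 6.83, 6.71 and 5.99, read 6.46, 6.22 and 6.00. The arrays of tTA mice 4 and 5, with CA2 markers at 4.75 and 5.46, read 5.29 each, and the highest DN array, that of mouse 1, read 5.17. On the brighter probe set the order held in rTg4510 mice but not in DN mice. There the array of DN mouse 4, with low CA2 markers, read highest (6.21). Lxn and Perp were also higher on the arrays of rTg4510 mice 2, 3 and 5 (7.90 to 8.62 for Lxn and 4.17 to 5.30 for Perp) than on those of mice 1, 4 and 6 (4.33 to 6.999 and 1.94 to 3.62), but they had no such order in DN mice. In tTA mice Lxn had this order, with 7.93 to 8.76 on the arrays of mice 1, 2 and 3, against 6.83 and 7.38 on those of mice 4 and 5. Perp read 4.08 to 5.88 on the former and 3.27 and 4.26 on the latter, with overlap. The part of CA2 tissue in these differences was not tested.

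Other genes with a higher mean act in signalling. Gng4, a gamma subunit of heterotrimeric G proteins, read 3.88, 3.09, 3.26, 3.15 and 4.11 in tTA mice, against 1.56 to 2.72 (median 2.17) in DN mice, without overlap, and its second probe set differed by 0.09. Grb10, an adaptor of the insulin and IGF1 receptors, averaged 5.95 ± 0.40 in tTA mice and 4.81 ± 0.57 in DN mice (SD, n = 5 and 6), and the groups overlapped. Gli2, a transcription factor of hedgehog signalling, averaged 2.63 in tTA mice and 1.87 in DN mice, both below the signal of the median probe set. Of the remaining ones, Trim37, an E3 ubiquitin ligase, stood out by its high signal, 10.27, 9.92, 10.20, 9.98 and 9.93 in tTA mice, against 9.40 to 9.73 (median 9.56) in DN mice. Its 4 probe sets all had a higher mean in tTA mice, by 0.25 to 0.75. On the brightest of them, the rTg4510 mean of 9.44 was below the DN mean of 9.56. Cnn2 (calponin 2, which binds actin), Gcnt2 (a glycan-branching transferase), Pgrmc1 (a heme-binding membrane protein), Gstm5 (a glutathione transferase) and Ppie (a spliceosomal cyclophilin) differed by 0.97, 0.72, 0.78, 0.62 and 0.60. Gcnt2 and Ppie did not overlap between the groups, and Cnn2, Pgrmc1 and Gstm5 did.

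**Figure D3:**
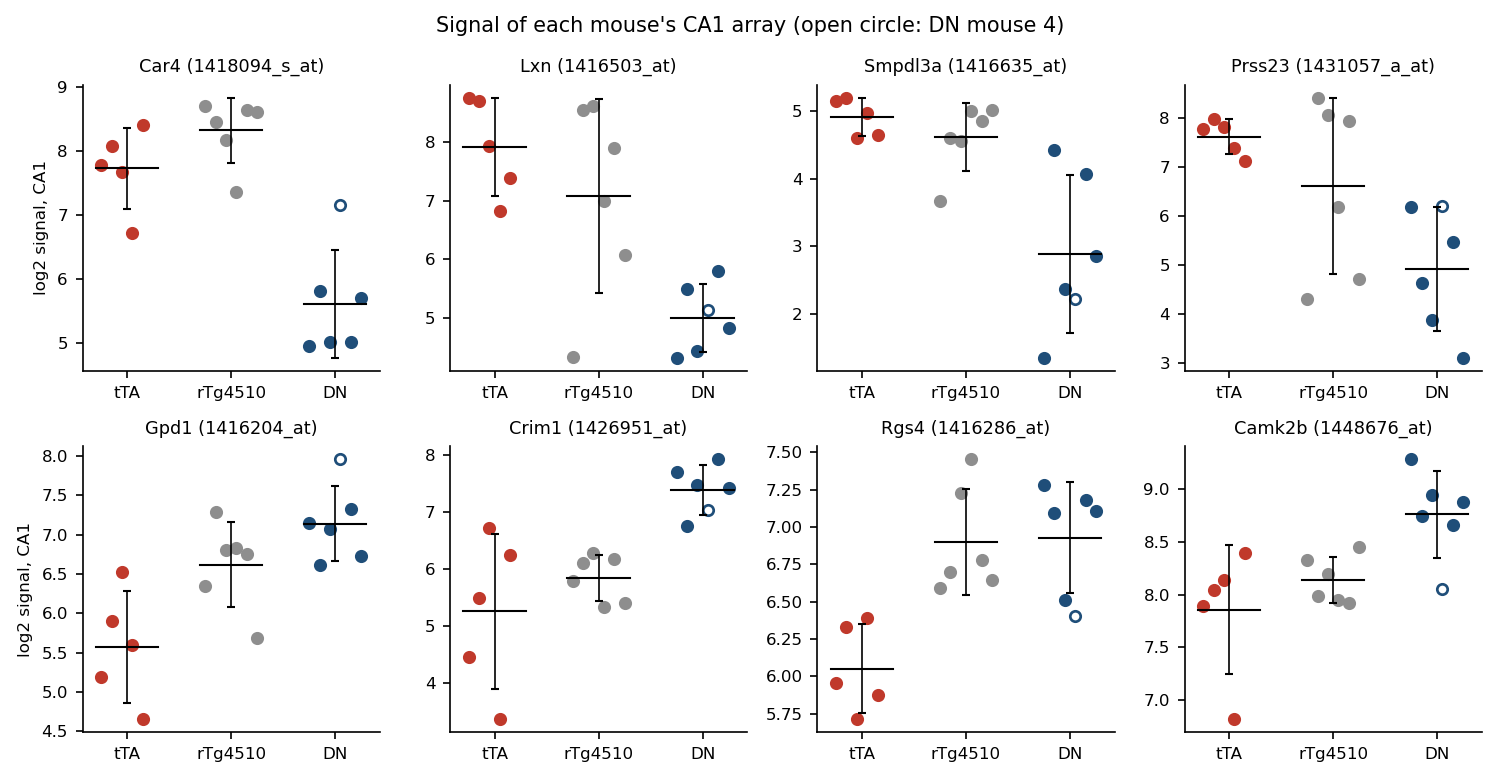
Log2 signal (vertical axes) of 8 genes on each CA1 array, with tTA mice at the left, rTg4510 mice in the middle and DN mice at the right; points are mice, bars are the mean ± SD and the open circle is the array labelled DN mouse 4. For Lxn, Smpdl3a and Prss23 every tTA array lies above every DN array, for Gpd1, Crim1 and Rgs4 every tTA array lies below, and for Car4 and Camk2b the array labelled DN mouse 4 is among the tTA arrays.

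Among the probe sets with a lower mean, Gpd1, the cytosolic glycerol-3-phosphate dehydrogenase, had the smallest p (2.1e-04). It read 5.19, 5.90, 6.52, 5.59 and 4.65 in tTA mice, against 6.62 to 7.96 (median 7.11) in DN mice. Every tTA array was below every DN array, by -1.57 ± 0.33 in the mean (adjusted p = 0.833), but a second Gpd1 probe set of similar signal differed by 0.063 ± 0.60. Crim1, a transmembrane protein that binds BMPs, read 4.46, 5.50, 6.72, 3.35 and 6.25 in tTA mice, against 6.75 to 7.94 (median 7.45) in DN mice. Its second probe set differed in the same direction, by -1.08 ± 0.35, with overlap. Rcor1, a subunit of the CoREST corepressor, read 1.86, 2.85, 2.05, 2.01 and 1.52 in tTA mice, against 3.21 to 5.64 (median 3.88) in DN mice, without overlap. The highest of the DN values was that of mouse 4, and a probe set of Rcor1 that was above the median signal in both groups differed by 0.19.

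Rgs4, which speeds the inactivation of G protein alpha subunits in neurons, read 5.96, 6.33, 5.71, 6.39 and 5.87 in tTA mice, against 6.40 to 7.28 (median 7.10) in DN mice. Every tTA array was below every DN array, by -0.88 ± 0.21, and -0.98 without DN mouse 4, and its other probe sets differed by -0.57 and -0.44 with overlap. In CA3 and the DG the first probe set differed by -0.75 and -0.96, with adjusted p values of 0.86 and 0.935. The natriuretic peptide receptor gene Npr2 had a like pattern, with 3.32, 3.55, 3.93, 2.98 and 3.05 in tTA mice, against 3.72 to 5.18 (median 4.25) in DN mice. The DN array below the highest tTA array was that of mouse 4, at 3.72, and the difference of -0.95 ± 0.23 was of like size in CA3 (-0.65) and the DG (-0.83).

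Htt, the huntingtin gene, read 4.86, 4.90, 4.96, 3.43 and 4.47 in tTA mice, against 5.13 to 7.19 (median 5.84) in DN mice, without overlap. Septin6, a filament-forming GTPase of the cell cortex, read 4.63, 5.91, 6.29, 5.04 and 6.20 in tTA mice, against 6.04 to 8.62 (median 8.05) in DN mice. These overlapped, and of its 5 other probe sets the 2 above the median signal differed by -0.51 and -1.44 and the 3 below it by -0.44, 0.19 and -0.12. Map4k4, a Ste20-type kinase, read 4.90, 5.50, 5.08, 3.58 and 5.93 in tTA mice, against 5.74 to 8.05 (median 6.66) in DN mice, where only tTA mouse 5 lay inside the range of the DN arrays. Bag4, an Hsp70 co-chaperone, differed by -0.94 and -1.34 on its 2 probe sets. Xylb (xylulokinase), Alkbh4 (a dioxygenase that removes methyl groups), Chchd5 (a mitochondrial protein), Dop1b, Eps15l1 (an endocytic adaptor) and Eif1b (a translation initiation factor) differed by -1.22, -1.71, -0.77, -1.04, -1.05 and -0.74. The other probe sets of Gcnt2, Chchd5, Dop1b and Eps15l1 differed by only -0.13 to 0.031, and those of Alkbh4 by -0.41 and -0.54. Of the genes just named, Eif1b had the highest signal, with means of 7.99 in tTA mice and 8.73 in DN mice. Without DN mouse 4, Slc35e4, a putative transporter, joined the 5 smallest p values among the lower ones, with a difference of -1.61, against -1.20 with all arrays, since that array read 3.45 and the other DN arrays read 5.47 to 7.04.

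The rTg4510 mice, which carry the same driver, did not go with the tTA mice throughout. Their mean was near the DN mean for Rgs4 (6.90 against 6.93), Htt (5.76 against 5.95) and Cnn2 (3.55 against 3.49). It was near the tTA mean for Grb10 (5.90 against 5.95), Smpdl3a (4.62 against 4.92) and Gstm5 (8.19 against 8.12). The array of tTA mouse 4 gave the lowest tTA signal of Crim1, Htt, Map4k4 and Npr2, and it was the array whose correlation with the others was 0.929 and whose CA3 markers exceeded its CA1 markers. All 30 leading probe sets kept the sign of their difference when any single mouse was left out. They also did so without the 6 arrays whose CA3 markers were above their CA1 markers and without the 3 arrays whose correlation was under 0.95. Being picked for small p values in these same arrays favours a kept sign, which is therefore no further support. Calls among them came with other settings of the fit. With all 51 arrays and the mouse as a random block, Lxn and Gng4 passed (limma adjusted p = 0.0403 each), and with array weights Car4 passed (adjusted p = 0.00391). Without DN mouse 4, Car4 was the 1 call of the fit with the random block (adjusted p = 0.00261), and Lxn and Gng4 did not pass.

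The study's driver line has a known insertion on chromosome 12 that disrupts a cluster of genes. Of these, Vipr2, Ncapg2 and Ptprn2 had a probe set named for them here, and Esyt2 and Wdr60 did not. Ptprn2, which encodes a receptor-type phosphatase of secretory vesicles, read 3.65, 4.41, 3.80, 3.39 and 4.04 in tTA mice, against 3.55 to 5.74 (median 5.17) in DN mice. Its difference of -1.06 ± 0.34 had an unadjusted p of 0.00671 and did not pass (limma adjusted p = 0.998). The lowest DN array, mouse 1 at 3.55, lay among the tTA arrays and the other DN arrays lay above all of them. The difference in Ptprn2 was 0.026 in CA3 and -0.10 in the DG. Ncapg2, a condensin subunit, averaged 2.03 ± 0.24 in tTA mice and 2.46 ± 0.39 in DN mice (SD, n = 5 and 6). Vipr2, a receptor for VIP and PACAP, averaged 1.58 ± 0.23 in tTA mice and 1.72 ± 0.31 in DN mice, and both genes were below the median probe set. All 3 had a lower mean in tTA mice, and 0 of the 4 measured neighbours had an unadjusted p under 0.05.

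The gene whose promoter drives the transactivator, Camk2a, gave a bright and even signal. It read 10.28, 10.23, 10.54, 10.30 and 10.51 in tTA mice, against 10.31 to 10.71 (median 10.53) in DN mice, and the difference was -0.14 ± 0.12. Camk2b, the beta subunit of the same kinase, read 7.89, 8.05, 8.14, 6.82 and 8.40 in tTA mice, against 8.05 to 9.29 (median 8.81) in DN mice. Its difference was -0.90 ± 0.25 with all arrays and -1.04 without DN mouse 4, when the groups did not overlap (limma adjusted p = 0.998 and 0.824). The Camk2b difference was -0.14 in CA3 and -0.08 in the DG. Camk2d, the delta subunit, differed by 1.01 ± 0.46 on 1 probe set. Camkk2, another calmodulin-dependent kinase, had probe sets of opposite sign, -0.60 ± 0.23 and 1.01 ± 0.60. The second of these was far higher on the array of tTA mouse 4 (7.75) than on the other tTA arrays. The brightest Camkk2 probe set had a lower mean in tTA mice, with signals of 7.70 to 8.61, against 7.99 to 9.57 in DN mice. Of the 9 calmodulin kinase genes measured, 7 had a lower mean in tTA mice (22.2% had a higher one, against 51.3% of all genes). At an unadjusted p under 0.05 there was 1 (11.1%, against 4.56%). The median difference was -0.14, against 0.0075 over all 11961 genes. The list's mean signal was lowest on the arrays of tTA mice 4 (5.76) and 1 (6.09), whose CA3 markers were above their CA1 markers. On that of tTA mouse 5 it was 6.63, inside the range of the DN arrays (6.39 to 6.69).

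Genes of the postsynaptic density had the most one-sided differences among the neuronal lists. Of 24 genes measured, 19 had a lower and 5 a higher mean in tTA mice, with a median of -0.34 (-0.31 without DN mouse 4). Over all genes, 5826 of 11961 had a lower mean. At an unadjusted p under 0.05 there were 2 lower and 1 higher, 12.5% of the list, against 4.56% of all genes, and 0 passed the adjusted threshold. Homer1, a scaffold that links metabotropic glutamate receptors to calcium stores, read 6.03, 5.25, 5.59, 3.66 and 5.62 in tTA mice, against 5.97 to 7.62 (median 6.70) in DN mice. The groups overlapped narrowly, with only tTA mouse 1 inside the DN range, and its other probe sets differed by -1.22 and -0.42. Grin2b, an NMDA receptor subunit, read 5.54, 5.88, 6.42, 4.09 and 6.01 in tTA mice, against 5.72 to 7.31 (median 6.75) in DN mice, with a difference of -1.10 ± 0.35 and with 3 tTA arrays inside the DN range. Shank3, a scaffold of the postsynaptic density, differed by -0.64 ± 0.31, and Cacng8, an auxiliary subunit of AMPA receptors, by 0.46 ± 0.15, its DN mean of 2.51 being below the median probe set.

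The mean signal of the postsynaptic list ran from 5.74 to 6.59 over the tTA arrays and from 6.29 to 6.97 over the DN arrays, so that the groups overlapped. The lowest was that of tTA mouse 4. The median difference was -0.12 without the 6 arrays whose CA3 markers were above their CA1 markers, and the part of these arrays in the list's difference was not tested further. In CA3 and the DG the median was -0.11 and -0.19. For the presynaptic list, 13 of 20 genes had a lower mean, with a median of -0.04, and 0 had an unadjusted p under 0.05.

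Genes induced by neuronal activity had 18 of 26 members with a lower mean in tTA mice and a median of -0.17, with 2 lower and 0 higher at an unadjusted p under 0.05 (7.69%, against 4.56% of all genes). These 2 were Arc and Homer1 (-1.45). Homer1 was also counted in the postsynaptic list, so that the lists are not independent. A higher mean was found in 30.8% of the list, against 51.3% of all genes. Arc, an immediate early gene whose protein regulates AMPA receptors at the synapse, read 4.93, 4.56, 4.70, 3.60 and 5.03 in tTA mice, against 4.78 to 6.99 (median 5.68) in DN mice. Its difference was -1.21 ± 0.35 (adjusted p = 0.998), with overlap, and it was -0.19 in CA3 and 0.041 in the DG. Egr2 and Fosb, transcription factors of the same response, differed by -0.84 ± 0.43 and -0.28 ± 0.16. The calcium and sodium channel list had 12 of 18 genes with a lower mean and a median of -0.19. Cacna1e, an R-type calcium channel subunit, was the 1 gene of these lists whose groups did not overlap (as in 0.349% of all probe sets, and, by gene, 18 with tTA arrays above and 27 with tTA arrays below of 11961), with 6.72, 6.30, 6.74, 4.91 and 6.53 in tTA mice, against 6.91 to 7.39 (median 7.15) in DN mice. Of 26 potassium channel genes 19 had a lower mean, with a median of -0.10, and of 9 GABA receptor genes 6 did, with a median of -0.14.

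**Figure D4:**
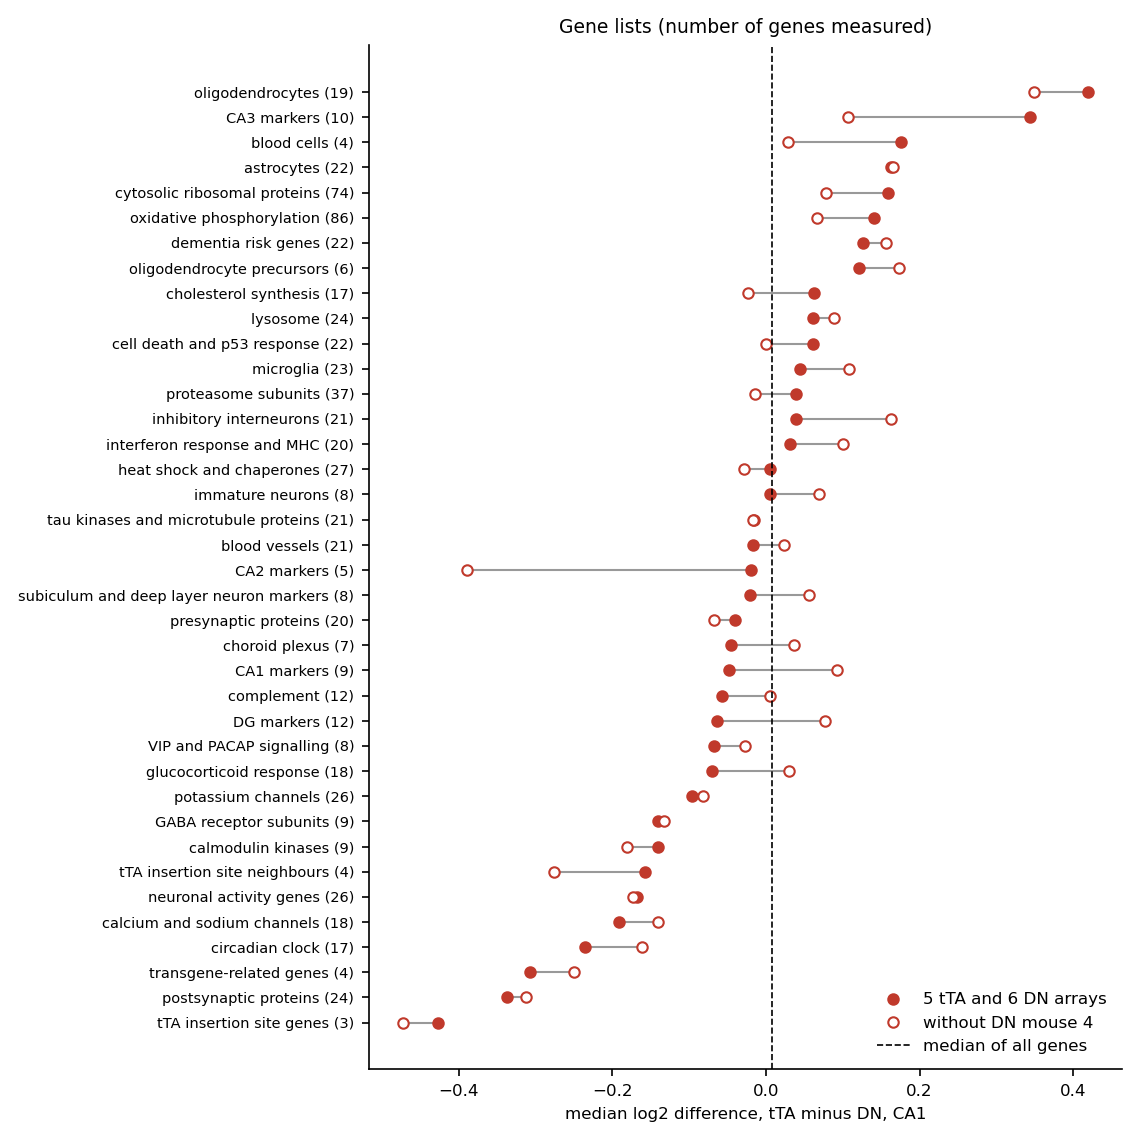
Median difference of tTA minus DN mice in log2 signal (horizontal axis) for each gene list in CA1, with all arrays (filled) and without DN mouse 4 (open), the number of genes measured in brackets and a dashed line at the median of all genes. The postsynaptic list has the median of -0.34, the oligodendrocyte list that of 0.42, and all 11961 genes that of 0.0075.

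Markers of glia were measured on every array, since the captured layer also holds glia and the neuropil around the cell bodies. Of 19 oligodendrocyte genes, 15 had a higher mean in tTA mice (78.9%, against 51.3% of all genes), with a median of 0.42 (0.35 without DN mouse 4). By limma 0 passed the adjusted threshold, with 1 at an unadjusted p under 0.05 (5.26%, near the 4.56% of all genes). Mobp and Mog, proteins of myelin, differed by 0.93 ± 0.65 and 0.81 ± 0.57, and the Mog means were 2.67 in tTA mice and 1.87 in DN mice, below the median probe set. The mean signal of the list ran from 4.63 to 6.31 over tTA arrays and from 4.63 to 5.85 over DN arrays. In CA3 and the DG its median was -0.17 and -0.50, of the opposite sign.

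Of 22 astrocyte genes, 16 had a higher mean (72.7%, against 51.3% of all genes), with a median of 0.16. Among them was S100b, a calcium-binding protein, with 6.97, 6.50, 6.73, 6.37 and 6.01 in tTA mice, against 5.32 to 6.40 (median 5.74) in DN mice, where the groups overlapped. Gfap, which forms the astrocytic intermediate filament, had a difference of -0.20 ± 0.91, less than its error. Of 23 microglial genes, 13 had a higher mean (56.5%, against 51.3% of all genes), with a median of 0.045, and 14 of the 23 were below the median probe set. Csf1r, the receptor for CSF1, read 8.08, 8.72, 7.86, 7.72 and 8.44 in tTA mice, against 4.15 to 8.11 (median 7.64) in DN mice, where DN mouse 1 lay far below the rest. Tyrobp, the signalling adaptor of microglial receptors, differed by -0.38 ± 0.44, and Trem2, one of those receptors, had probe sets of opposite sign, 0.22 ± 0.19 and -0.086 ± 0.15, both below the median probe set. C4b, a complement component, averaged 1.89 in tTA mice and 1.67 in DN mice, and Spp1, which encodes osteopontin, 1.15 in tTA mice and 1.32 in DN mice, both below the median probe set.

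Interneuron genes were near balance, with 13 of 21 higher (61.9%, against 51.3% of all genes) and a median of 0.039. Npy, which encodes neuropeptide Y, read 5.00, 5.31, 4.61, 6.54 and 4.56 in tTA mice, against 2.57 to 5.26 (median 4.23) in DN mice, with a difference of 1.10 ± 0.55 and with overlap. Pvalb, which encodes parvalbumin, differed by 0.60 ± 0.25, and Gad2, the gene of the GABA-synthesising enzyme GAD65, by 0.029 ± 0.43. Dlg4, which encodes PSD-95, differed by -0.70 ± 0.46 and Homer2, a Homer family scaffold, by -0.48 ± 0.49. None of Gfap, C4b, Spp1, Npy, Gad2, Dlg4, Arc, Homer2, Tyrobp and Trem2, which the study discusses, passed in this comparison. The study's subfield results for Gfap, C4b, Spp1, Npy, Gad2 and Dlg4 are mostly for rTg4510 against tTA mice, and in older mice. For that older age it also reports Gfap as higher in CA1 of tTA than of DN mice.

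Large housekeeping groups had small differences of mostly the same sign. Of 86 genes of oxidative phosphorylation, 66 had a higher mean in tTA mice, with a median of 0.14, and of 74 cytosolic ribosomal protein genes 55 did, with a median of 0.16, against 6135 of 11961 genes overall. Without DN mouse 4 the medians were 0.066 and 0.079. The mean signal of the ribosomal list ran from 7.61 to 8.17 over tTA arrays and from 7.25 to 8.06 over DN arrays. Ndufb2 and Ndufv2, subunits of complex I, differed by 0.84 ± 0.35 and 0.53 ± 0.21, and Rps26, of the small ribosomal subunit, by 0.79 ± 0.33. Several probe sets of ribosomal proteins also match processed pseudogenes, and these cannot be separated here.

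Of the lists tied to stress and metabolism, circadian clock genes had 11 of 17 members with a lower mean and a median of -0.24, with Per3 and Cry2, repressors of the clock, at -0.57 ± 0.27 and -0.40 ± 0.21. Cholesterol synthesis had 5 of 17 genes with an unadjusted p under 0.05 (29.4%, against 4.56% of all genes), in both directions: Mvk, mevalonate kinase, at -0.84 ± 0.26 and Srebf2, the transcription factor of the pathway, at -1.07 ± 0.44 were lower in the mean, and Idi1, isopentenyl diphosphate isomerase, at 0.58 ± 0.18 and Cyp51, a sterol demethylase, at 1.22 ± 0.53 were higher in the mean. Of 22 genes of cell death and the p53 response, 14 had a higher mean (63.6%, against 51.3% of all genes), with a median of 0.061, and Gadd45b, a stress-induced regulator, differed by -0.70 ± 0.21. The interferon list had a median of 0.031 and the lysosomal list one of 0.061, with Ctsz, the protease cathepsin Z, at 1.69 ± 0.62. None of the 39 lists held a gene that passed, with all arrays.

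The differences of the leading genes in CA1 were mostly not seen at the same size in the other subfields. In CA3 and the DG, 0 of 22626 probe sets passed for tTA against DN mice with all arrays (limma, 0% in each), with 1388 and 1179 at an unadjusted p under 0.05. Without DN mouse 4, 0 passed in the DG (0%) and 1 in CA3 (0.00442%), Nfkbie, an inhibitor of NF-kappa-B, which was lower by -2.07 ± 0.28 (adjusted p = 0.0357). Without DN mice 4 and 5 and rTg4510 mouse 3, 0 passed in CA3 (0%) and 13 in the DG (0.0575%), 4 higher and 9 lower in tTA mice. Of these 13, 3 were among the 30 leading probe sets of CA1, and they had the same sign there: Car4, the dimmer Prss23 probe set (3.03 ± 0.47, adjusted p = 0.0346) and Rgs4 (-1.44 ± 0.22, adjusted p = 0.0346). With all arrays, the differences of the 15 leading probe sets with a higher mean in CA1 ran from -0.53 to 1.36 in CA3 and from -0.82 to 2.18 in the DG. Those of the 15 with a lower mean ran from -1.49 to 0.60 in CA3 and from -1.20 to 1.25 in the DG. Lxn, for example, differed by 2.93 in CA1, against 0.36 for CA3 and -0.41 for the DG, and the brighter Prss23 probe set differed by 2.69, -0.65 and 1.81 in these layers. They were chosen for small p values in CA1, so that their sizes in the other subfields are no test of a difference between subfields. Whether the tTA minus DN difference itself depends on the subfield was tested within mice over all probe sets. Between CA1 and CA3, 0 of 22626 probe sets passed (0%; limma, smallest adjusted p 0.746), with 1079 at an unadjusted p under 0.05 (4.77%). Between CA1 and the DG, 0 passed (0%; smallest adjusted p 0.356), with 985 at an unadjusted p under 0.05 (4.35%). In the fits that leave out DN mouse 4, 0 passed in either (0%), with 969 and 922 at an unadjusted p under 0.05. Without DN mice 4 and 5 and rTg4510 mouse 3, 0 passed between CA1 and CA3 (0%) and 1 between CA1 and the DG (0.00442%), the chemokine gene Cxcl12 (3.75 ± 0.40, adjusted p = 0.00597).

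**Figure D5:**
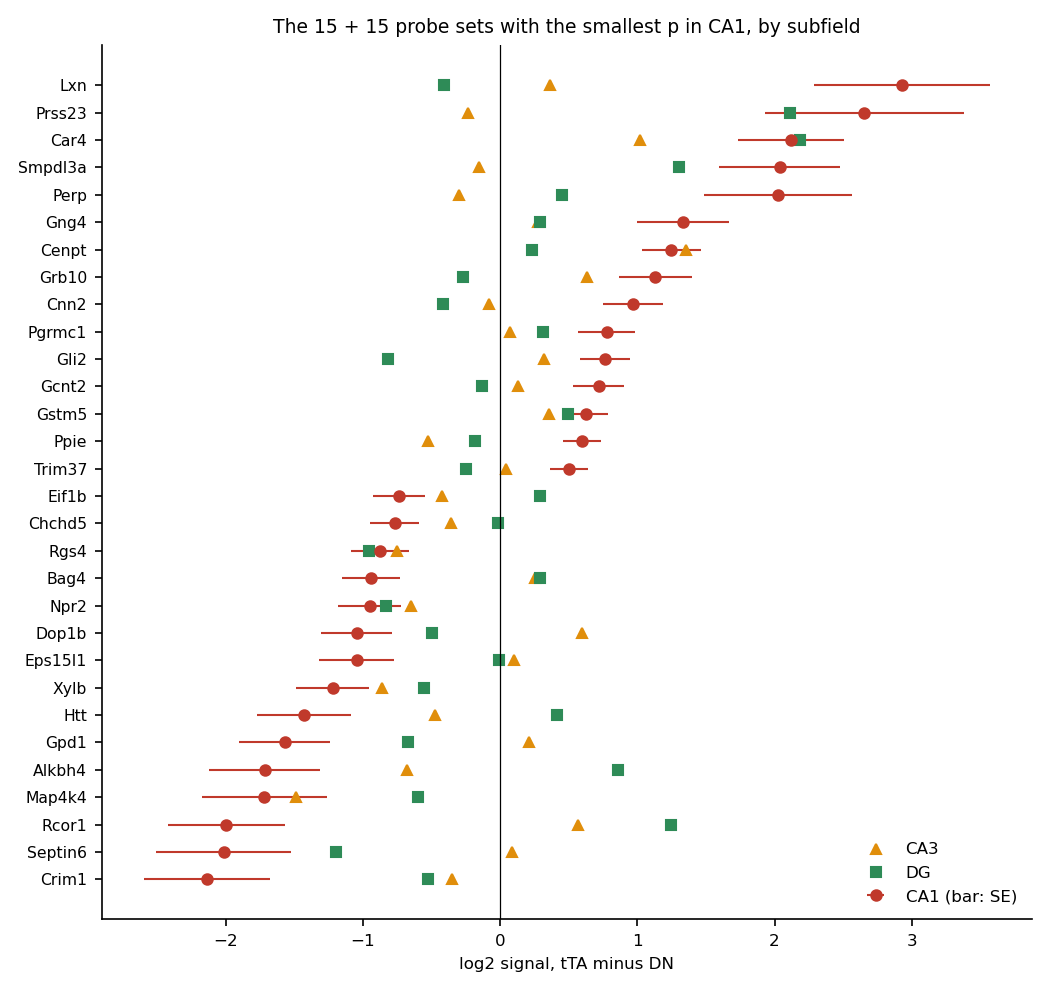
Difference of tTA minus DN mice in log2 signal for the 30 leading probe sets in CA1 (circles, with bars for the SE), CA3 (triangles) and the DG (squares), with all arrays. The CA1 values, which chose the probe sets, lie farthest from 0 for most of them, and Car4 (2.18), the dimmer Prss23 probe set (2.11) and Rgs4 (-0.96) have differences of like size in the DG.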

How the data were processed

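RNA of laser-captured layers was amplified (Ovation Pico WTA) and biotin-labelled before hybridisation. The values that the authors deposited are RMA signals in log2 units, corrected for background, normalized between arrays and summarized per probe set. The methods describe them as anti-log, which the size of the values goes against. The version of RMA is not given in the sources used here. Arrays give no counts, and the number of mice limits the precision.

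Groups came from the deposited labels. Of 22716 probe sets, the 22626 that are not controls were tested, with no filter. The platform's table names 1 gene for 18003, several for 287 and none for 4336, of which 319 were named from the study's supplementary tables. The 17 CA1 arrays were fitted together in limma 3.58.1 (R 4.3.3), with Benjamini-Hochberg adjustment and a threshold of 0.05. Subfields were compared on each mouse's difference between 2 arrays. Exact permutation tests used all 462 splits of 11 mice or 252 of 10.

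The comparison, the named genes and the 39 gene lists were chosen with earlier results of these data known. Named were probe sets past the threshold, the 15 smallest p values in each direction, the 5 smallest without DN mouse 4, insertion-site, transgene-related, calmodulin kinase and sex-linked genes, members of each list with its 4 smallest p values, and genes the study discusses. Further probe sets of these genes, Nfkbie, Cxcl12 and genes under an adjusted p of 0.05 in an alternative were added after their values were seen. Some genes that the rule names are not reported here. Lists used the brightest probe set per gene. The procedures were tested on simulated data, and figures used matplotlib 3.10.9 in Python 3.11.15.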

Additional observations from a re-analysis of the deposited data

Results flagged for a closer look

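Among the genes named here, 214 groups of 5 or 6 arrays were checked for 1 array far from the others, by the gap to its neighbour as a share of the range, and 10 were found. Chance alone marks about 1 in 20 such groups. The array of tTA mouse 4 held 3 of these and that of DN mouse 4 held 2.

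On the array of tTA mouse 4, Cacna1e read 4.91, with the next tTA array at 6.295, a probe set of Camkk2 read 7.754, with the next at 4.06, and Ntsr2, a neurotensin receptor of astrocytes, read 6.767, with the next at 6.05. On that of tTA mouse 5, Kl, which encodes klotho, read 3.31, with the next at 1.857. On that of tTA mouse 1, Cldn10, a claudin, read 2.439, with the next at 3.468.

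On the array labelled DN mouse 4, whose Prnp signal went against its label, Rplp0, a ribosomal stalk protein, read 4.491, with the next DN array at 6.405, and Fgfr3, a fibroblast growth factor receptor, read 5.58, with the next at 4.654. On that labelled DN mouse 5, Xist read 2.49, with the next at 8.466, as given above. Egr2 read 6.424 on the array of DN mouse 3, with the next at 4.207, and Dlg4 read 4.826 on that of DN mouse 1, with the next at 6.41.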

How the results depend on the processing

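With 5 and 6 mice per group, the number of calls stayed at 0 or 1 when any single mouse was left out, and it was 1, Car4, without DN mouse 4. With all mice, array weights gave 1 call (Car4, limma adjusted p = 0.00391) and the mouse as a random block over all subfields gave 2 (Lxn and Gng4, 0.0403 each), which were lost without DN mouse 4, when that fit called Car4 (0.00261). Leaving out the 3 arrays with a correlation under 0.95, chosen after seeing the data, gave 3 calls, with or without DN mouse 4 in the starting set: both probe sets of Car4 (0.0148 each) and 1 probe set with no gene name (0.0444). The other settings gave 0.

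Without DN mouse 4, the count of 1 was 0 by Fisher's LSD, both with log2 and with linear signals, with 1 probe set per gene (where the brighter Car4 probe set stands for the gene), with only the tTA and DN arrays, without DN mouse 5 as well, and without the 6 arrays with high CA3 markers, also chosen after seeing the data. It ran from 0 to 1 when 1 more mouse was left out. The adjusted p of Car4 ran from 0.00163 with array weights to 0.956 by Fisher's LSD on linear signals, and its difference was 2.83 without the 6 arrays. The cause of these changes was not tested.

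Of 103 probe sets named, 96 kept their sign in every setting, as did all 30 leading ones and the medians of 16 of 39 lists. For the leading ones this is no further support, as their choice by small p values in these arrays favours a kept sign. Gfap (-0.20) was at 0.40 on linear signals, 0.39 with array weights, 0.80 without the 6 arrays, 0.43 without the 3 arrays and -0.82 to 0.25 with 1 mouse left out. Xist (0.78) was at -0.027 on linear signals, -0.24 without DN mice 4 and 5, -0.38 without the 6 arrays and -0.29 to 1.09 with 1 mouse left out. Gad2 (0.03) was at -0.065 with array weights, -0.18 without the 3 arrays and -0.14 to 0.21 with 1 mouse left out. The dimmer Trem2 probe set ran from -0.17 to 0.0013 with 1 mouse left out and the brighter one was at -0.016 without the 6 arrays, Dlg4 was at 0.064 without the 6 arrays and the Camkk2 probe set with a difference of 1.01 was at -0.14 without the 3 arrays. The median of the oligodendrocyte list ran from 0.21 to 0.65 and that of the postsynaptic list from -0.43 to -0.19 with 1 mouse left out.

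No paired analysis was possible because tTA and DN mice are different animals and their numbers only name them. For the comparisons of CA1 with CA3 and with the DG, leaving out the replicate block of the mouse gave 0 calls each by limma, as with it, with 936 and 865 probe sets at an unadjusted p under 0.05, and the consensus correlation of a mouse's arrays was 0.0454.

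Leaving out mice after their signals were seen gave, without DN mouse 4, 1 call in CA3 (0 with all arrays), and, without DN mice 4 and 5 and rTg4510 mouse 3, 13 in the DG and 1 for CA1 against the DG (0 with all arrays in each). The cause was not tested.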
